A study of Mus musculus with 16 samples.

Results

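The 8 genes described here, Kit, Stra8, Neurog3, Sohlh1, Sohlh2, Upp1, Dmrt1 and Sox3, act in or mark the step at which a male germ cell leaves the stem cell pool and becomes a differentiating spermatogonium. They were taken by gene symbol from the 27128 genes of each RNA table, and all 8 were present with 1 transcript each. In the testis, undifferentiated spermatogonia self-renew under GDNF and retain the capacity to differentiate. Retinoic acid then drives the transition, with Stra8 switched on and the receptor tyrosine kinase KIT, bound by KIT ligand from Sertoli cells, carrying survival and proliferation signals in the differentiating cells. A set of transcription factors prepares or times this step, among them the basic helix-loop-helix proteins SOHLH1, SOHLH2 and NEUROG3, the HMG-box protein SOX3 and the doublesex-related protein DMRT1.

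The cells were mouse germline stem cell cultures, that is, spermatogonia propagated outside the testis. Every library came from mice at postnatal day 5.5 that carried the transgene Tg(Pou5f1-EGFP)2Mnn on a B6;CBA background, in which Oct4 (Pou5f1) regulatory sequence drives EGFP. The founding cells had been sorted as Oct4-positive and KIT-negative, so KIT protein itself was used to choose them, and were then grown in StemPro-34 medium that contained GDNF, EGF and bFGF, either on a feeder layer of mouse embryonic fibroblasts (MEF) or without feeders on the basement-membrane preparation Matrigel. The 12 RNA libraries formed 4 experiments. A feeder-removal series held a culture on MEF (day 0) and cultures 4 and 9 days after transfer to Matrigel. A density pair compared thinly coated Matrigel (0.1 µg/cm2, epithelial-like cells) with thickly coated Matrigel (10 µg/cm2, mesenchymal-like cells). A sort held the Oct4-GFP low, mid and high fractions of cells grown at 10 µg/cm2. An inhibitor series held cultures on MEF given the solvent DMSO or UNC0638, an inhibitor of the histone methyltransferase G9a, at 0.5, 1 or 2 µM, with 48 hours of treatment stated for the inhibitor. Each group was 1 library, and the labels name no separate animals or cultures. The differences below are therefore between single libraries, without replicates, and carry no p-value.

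Libraries held 4335185 to 12019651 counts. Levels between libraries are given in CPM, which are counts scaled for library size, with a floor for 3 counts of 0.238 to 0.724 CPM, and levels between genes in TPM (transcripts scaled to a common total), which corrects for transcript length. A ratio is the log2 ratio of CPM + 1, is called at 2-fold or more (a log2 ratio of 1), and is followed in brackets by the 95% Clopper-Pearson interval of the read split, which covers counting error only. The 18 germ cell markers found in the files were detected in every library, with a summed level of 4538 to 7988 CPM. Markers of other cells moved between libraries of the same experiment. The summed level of 20 fibroblast markers was 304 CPM in the epithelial-like and 5983 CPM in the mesenchymal-like culture, and 3042 CPM with DMSO against 441 to 1044 CPM with UNC0638. That of 12 myeloid markers was 1832 CPM in GFP-low, 1622 CPM in GFP-mid and 216 CPM in GFP-high cells, and 10.2 to 44.4 CPM in the other libraries; none of the 12 was at 0 in the sorted fractions. Sertoli markers summed to at most 91.8 CPM with 1 to 3 of 11 at 0, Fshr in every library, and with Clu, Vcam1, Sox9 and Wt1 detected, Leydig markers to 0.907 to 10.9 CPM with 5 to 7 of 8 at 0, and mast cell markers to 3.76 to 14.6 CPM with 5 to 6 of 7 at 0. In bulk RNA, fewer cells of a type and less RNA per cell cannot be told apart.

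The regions just upstream of 3 of the genes are shown as a description, and no result below rests on these sequences. The genes were picked by their expression: Stra8 and Neurog3 went opposite ways under the inhibitor, and Sohlh1 went a different way from its partner Sohlh2. A link between the sequences and these differences was not tested. In RefSeq on GRCm38.p6, Kit spans chr5:75574987-75656722, Stra8 chr6:34920163-34939344, Neurog3 chr10:62133090-62134763, Sohlh1 chr2:25842995-25847248, Sohlh2 chr3:55182044-55209957, Upp1 chr11:9118008-9136170, Dmrt1 chr19:25505618-25604328 and Sox3 chrX:60891366-60893430. The sequences come from RefSeq on GRCm38.p6 and cover the 250 bases before the transcript start, 5′ to 3′ on the strand of the gene. The table held entries for 6 of the 8 genes, and Dmrt1 and Sox3 are named only. The motifs searched on both strands were AGGTCA and AGTTCA, the core letters bound by retinoic acid receptors and their relatives, the E-box CANNTG bound by basic helix-loop-helix proteins, and AACAAT, a SOX-type motif. Capitals mark AGGTCA in Stra8 and E-boxes in Neurog3 and Sohlh1.
Stra8: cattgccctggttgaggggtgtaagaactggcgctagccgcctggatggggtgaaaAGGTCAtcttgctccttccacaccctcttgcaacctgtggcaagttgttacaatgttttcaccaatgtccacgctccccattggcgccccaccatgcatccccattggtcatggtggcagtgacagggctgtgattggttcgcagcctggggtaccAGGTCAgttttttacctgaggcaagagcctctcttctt
Neurog3: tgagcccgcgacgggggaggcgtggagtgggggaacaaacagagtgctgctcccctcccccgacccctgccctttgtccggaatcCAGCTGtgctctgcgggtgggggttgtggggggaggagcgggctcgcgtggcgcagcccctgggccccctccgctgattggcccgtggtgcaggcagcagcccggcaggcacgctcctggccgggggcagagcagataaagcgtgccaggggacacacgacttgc
Sohlh1: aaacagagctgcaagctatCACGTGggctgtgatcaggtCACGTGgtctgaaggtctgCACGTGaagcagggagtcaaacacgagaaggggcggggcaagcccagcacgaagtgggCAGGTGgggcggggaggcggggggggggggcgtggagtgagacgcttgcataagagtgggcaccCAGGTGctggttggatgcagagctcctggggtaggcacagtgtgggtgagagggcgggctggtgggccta
The Stra8 window, chr6:34920698-34920947 on the plus strand, lies within a RefSeq gene record that starts further upstream at 34920163. It held AGGTCA at 194 and 38 bases before the start, where 14% of 32851 windows of the same length held at least 1 match and 1.36% held 2 or more. The Neurog3 window, chr10:62132840-62133089 on the plus strand, held 1 E-box, CAGCTG, at 165 bases before the start. The Sohlh1 window, chr2:25847249-25847498 on the minus strand, held 5 E-boxes, CACGTG at 231, 211 and 192 bases and CAGGTG at 134 and 70 bases before the start, and AGGTCA at 215 bases, overlapping the E-box at 211. An E-box was present in 66.2% of windows, and 5 or more in 1.15%. Neither Kit window held any of the 4 motifs, the Sohlh2 window held 1 E-box, and the 3 Upp1 windows held 1, 1 and 2. A match describes the letters only, and no measurement of binding was analysed here.

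Per transcript length, the genes differed in level. Dmrt1 was the most abundant of the 8 in all 12 libraries, with a lowest, median and highest TPM of 287, 359 and 558. Sohlh1 ranged from 152 to 348 TPM with a median of 263, and Sohlh2 from 164 to 280.3 TPM with a median of 238. These 3 transcription factors lay above at least 95.8% of all genes in every library. Stra8 followed with a median of 51.2 TPM and a highest value of 247 TPM in GFP-high cells, above Sohlh2 there at 179 TPM, Upp1 with 35.5, Kit with 16.3 and Neurog3 with 16.0. Sox3 was the lowest in every library, with a median of 2.83 TPM. The order of the middle genes changed between experiments: Upp1 stood above Stra8 in the feeder-removal series and in the 3 UNC0638 libraries, and below it in the other 6. The genes with lower medians also varied more. The highest TPM was 15.7 times the lowest for Stra8, 6.43 times for Upp1, 5.91 times for Kit and 4.44 times for Neurog3, against 2.30 times for Sohlh1, 1.95 times for Dmrt1 and 1.71 times for Sohlh2.

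**Figure D1:**
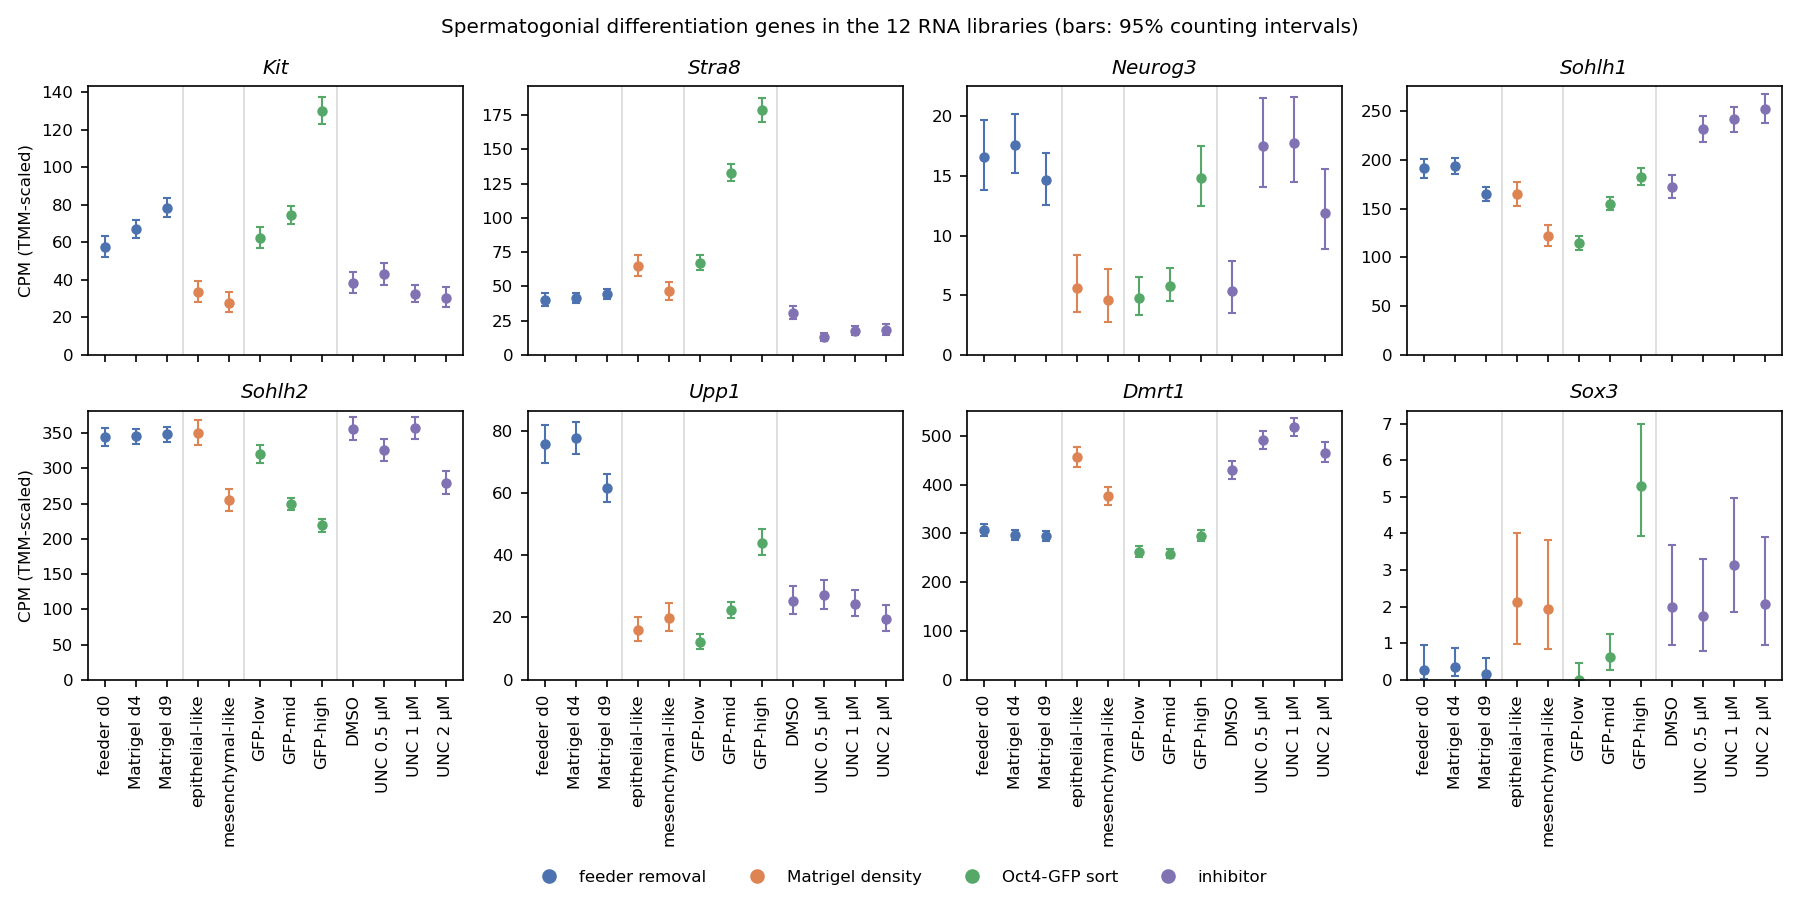
Level of each of the 8 genes in CPM (vertical axes, linear and starting at 0, a separate scale per gene) in the 12 libraries (horizontal axis, grouped by experiment). Points are single libraries and bars are exact 95% Poisson intervals of the counts; Sohlh2 runs from 219 to 358 CPM and Dmrt1 from 258 to 518 CPM, whereas Stra8 runs from 12.7 to 179 CPM.

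SOHLH1 and SOHLH2 are germ-cell transcription factors that can act together and are needed for differentiation. Sohlh1 was at 191, 194 and 165 CPM on days 0, 4 and 9, at 165 and 122 CPM in the epithelial-like and mesenchymal-like cultures, and at 114, 155 and 183 CPM in GFP-low, mid and high cells. With DMSO it was at 172 CPM, and with 0.5, 1 and 2 µM UNC0638 at 231, 241 and 252 CPM. Sohlh2 was at 344, 346 and 348 CPM on days 0, 4 and 9, at 351 and 255 CPM at the low and high Matrigel density, and at 320.2, 249 and 219 CPM across the GFP fractions. With DMSO it was at 357 CPM, and with increasing inhibitor at 326, 358 and 279 CPM. The paired factors therefore ran in opposite directions across the GFP fractions. The ratio of Sohlh1 to Sohlh2 in TPM was 0.693 in GFP-low, 1.20 in GFP-mid and 1.62 in GFP-high cells. It was 0.928 with DMSO and 1.37, 1.30 and 1.73 at 0.5, 1 and 2 µM UNC0638, and between 0.897 and 1.08 in the other 5 libraries.

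DMRT1 acts in spermatogonia to restrain entry into meiosis and to maintain the mitotic programme. Dmrt1 was at 308, 296 and 295 CPM across feeder removal and at 456 and 376 CPM at the low and high Matrigel density. It was at 263, 258 and 296 CPM in GFP-low, mid and high cells, and at 431, 492, 518 and 466 CPM with DMSO and 0.5, 1 and 2 µM UNC0638. Dmrt1 was not called in any of the 11 comparisons.

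SOX3 and NEUROG3 mark early progenitors that are committed to differentiate, and Neurog3 lies downstream of SOX3 in the mouse testis. Sox3 was close to the limit of detection, with 2, 4 and 2 counts in the feeder-removal series, 9 and 8 counts in the density pair, 0, 8 and 50 counts in GFP-low, mid and high cells, and 9 to 18 counts in the inhibitor series. Its mean over the 12 libraries was 1.64 CPM, just above the filter of 1 CPM, and its highest level was 5.31 CPM in GFP-high cells. Neurog3 was at 16.6, 17.6 and 14.6 CPM across feeder removal and at 5.63 and 4.59 CPM in the density pair. It was at 4.76, 5.78 and 14.9 CPM in GFP-low, mid and high cells, and at 5.39, 17.5, 17.8 and 11.9 CPM with DMSO and rising inhibitor. Its values thus fell into a lower range of 4.59 to 5.78 CPM in 5 libraries and a higher range of 11.9 to 17.8 CPM in the other 7.

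KIT is the receptor of stem cell factor. Kit was at 57.6, 66.9 and 78.5 CPM on days 0, 4 and 9, at 33.3 and 27.8 CPM in the density pair, at 62.3, 74.3 and 130.04 CPM across the GFP fractions, and at 38.3, 42.9, 32.5 and 30.5 CPM in the inhibitor series. Its highest value was in the GFP-high fraction and its lowest in the mesenchymal-like culture, although both were grown at 10 µg/cm2. Fibroblast markers summed to 5983 CPM in that unsorted culture and to 119, 160 and 266 CPM in GFP-low, mid and high cells, and their part in the Kit levels was not tested. Kitl, the gene of the KIT ligand, was at 13.8 CPM in the mesenchymal-like culture and at most 2.5 CPM in the other 11 libraries.

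STRA8 is a retinoic acid-induced factor needed for the start of meiosis. Stra8 was at 40.1, 41.5 and 44.4 CPM across feeder removal, at 64.8 and 46.4 CPM in the density pair and at 67.2, 133 and 179 CPM across the GFP fractions. With DMSO it was at 30.5 CPM, and with 0.5, 1 and 2 µM UNC0638 at 12.7, 17.5 and 18.3 CPM, the 3 lowest values of the series. UPP1 is uridine phosphorylase, an enzyme of pyrimidine salvage. Upp1 was at 75.6, 77.5 and 61.5 CPM across feeder removal, at 15.96 and 19.8 CPM in the density pair, at 12.2, 22.3 and 44.1 CPM across the GFP fractions, and at 25.4, 27.2, 24.4 and 19.5 CPM in the inhibitor series. The feeder-removal libraries were the 3 highest for Upp1.

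The sort asked how gene expression differs between cells that are low, mid or high for the Oct4 reporter in the same kind of culture. Pou5f1 itself was at 83.9, 176 and 367 CPM in GFP-low, mid and high cells, in the order of the sort labels. Of the 8 genes, 5 were at least 2-fold higher in GFP-high than in GFP-low cells and none was lower, where 9.54% of the 14301 tested genes were called, 6.94% higher and 2.59% lower. Sox3 rose from 0 to 50 counts, at least 14.1-fold against a floor of 3 counts in the GFP-low library, and the counting interval, which also covers the error of the 50 counts, starts at a log2 ratio of 3.47. Upp1 rose 3.42-fold (log2 ratio 1.78 [1.53 to 2.19]), Neurog3 2.75-fold (1.46 [1.11 to 2.20]), Stra8 2.63-fold (1.40 [1.27 to 1.55]) and Kit 2.07-fold (1.05 [0.91 to 1.21]). Among all tested genes, 175 had a higher ratio than Upp1 and 884 a higher ratio than Kit. The 3 abundant factors were not called, with ratios of 0.67 [0.56 to 0.79] for Sohlh1, 0.17 [0.09 to 0.25] for Dmrt1 and -0.55 [-0.63 to -0.46] for Sohlh2. The median over the 8 was 1.22, beside -0.02 over all tested genes and -0.08 over the tested germ cell markers.

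The genes differed in where along the reporter gradient the step lay. Between GFP-low and GFP-mid no gene of the 8 was called, where 4.07% of tested genes were (3.38% higher and 0.685% lower). Stra8 came closest at 0.97 [0.84 to 1.13], and was past 2-fold when scaled by total counts, on deposited TPM or when centred on the germ cell markers, with values from 0.93 to 1.12 over all alternatives. Between GFP-mid and GFP-high, 2 genes were called, where 2.85% of tested genes were (1.32% higher and 1.52% lower): Sox3 at 1.95 [1.98 to 4.35] and Neurog3 at 1.23 [0.94 to 1.79]. The Sox3 interval lies above its ratio because the interval carries no pseudocount. With a pseudocount of 5 CPM the ratios were 0.87 for Sox3 and 0.88 for Neurog3, below 2-fold. Kit, at 0.80 [0.68 to 0.93], also had more of its difference in this second interval than in the earlier one, at 0.25 [0.09 to 0.41]. Stra8 was the reverse, with 0.42 [0.33 to 0.52] between mid and high. Upp1 had similar ratios in both, 0.83 [0.54 to 1.22] and 0.95 [0.76 to 1.20]. These comparisons share the GFP-mid library. All 11 tested myeloid markers were lower in GFP-high than in GFP-mid cells (median -2.59), and 0 were called between GFP-mid and GFP-low (median -0.17). Their part in where the steps lay was not tested.

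**Figure D2:**
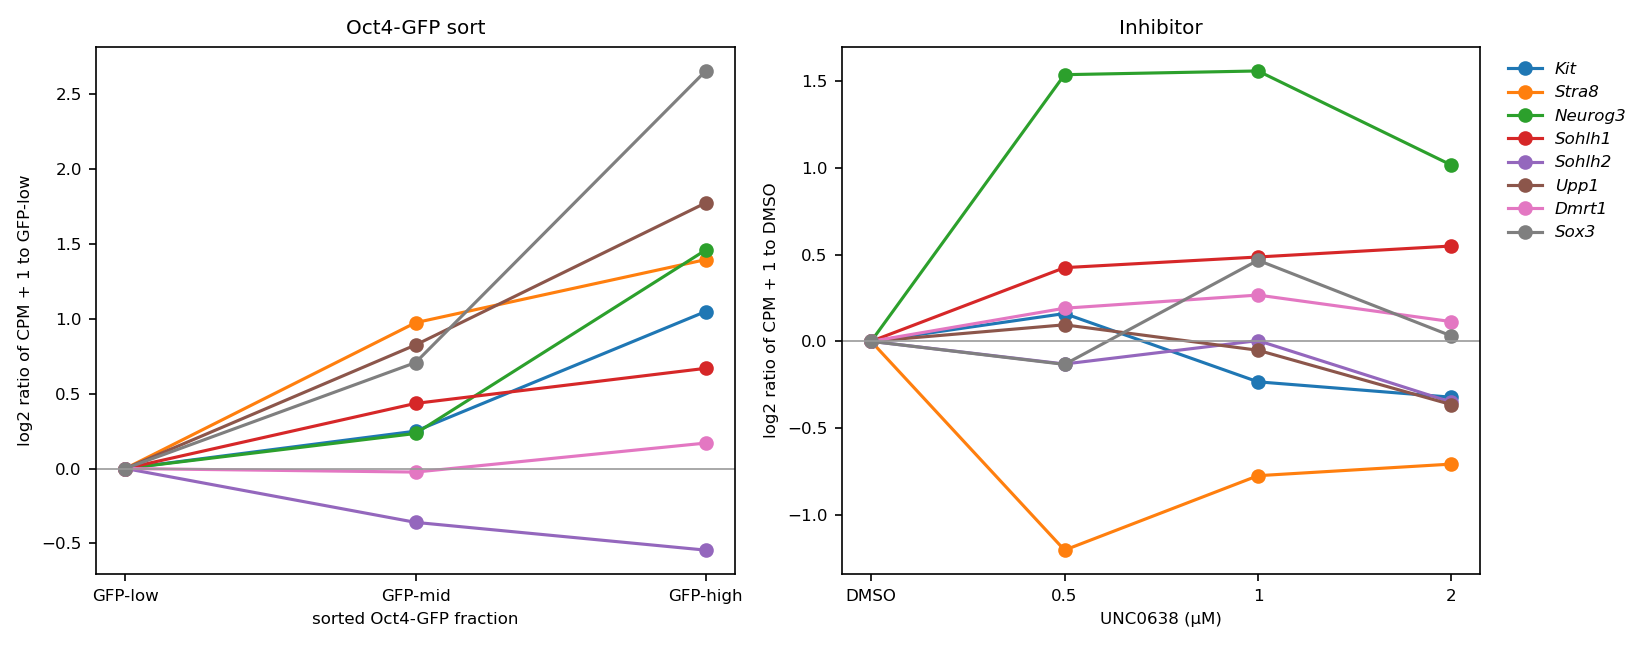
Log2 ratio of CPM + 1 (vertical axes) of each gene to the GFP-low library across the sorted fractions and to the DMSO library across UNC0638 concentrations (horizontal axes, categories not drawn to scale); each point is 1 library. Sox3, Upp1, Neurog3, Stra8 and Kit end above a log2 ratio of 1 in GFP-high cells, whereas in the inhibitor series Neurog3 lies above and Stra8 below the other genes.

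Other genes of the pathway were counted in GFP-high against GFP-low cells, beside the 6.94% of all tested genes that were higher and 2.59% that were lower. Of 22 tested further genes of differentiating spermatogonia, 4 were higher: Dnmt3l (a cofactor of DNA methylation), Rhox10, Lmo1 and Esx1. Another 2 were lower (Elavl2 and Foxc2) and 16 were not called, with a median of 0.41 over the 22. Of 21 tested genes of undifferentiated spermatogonia, 7 were lower: the GDNF receptor genes Gfra1 and Ret, the GDNF-responsive factors Etv5, Bcl6b and T, Nanos2, an inhibitor of differentiation, and Plvap. The 4 higher ones, from GFP-low to GFP-high cells, were Id4 (6.65 to 24.2 CPM), Foxo1 (75.4 to 372 CPM), Utf1 (2.01 to 14.6 CPM) and Egr4 (31.0 to 264 CPM). Of 14 tested genes of retinoid receptors and handling, Rxrg and Crabp1 were higher and the retinoic acid-producing enzyme gene Aldh1a3 was lower. Of 16 tested early meiosis genes, Mei1 was higher and none was lower. Of 19 tested genes of KIT signalling, none was higher, and Lyn, Sh2b3 and Spry4 were lower. Spry4, a feedback inhibitor of receptor tyrosine kinase signalling, was at 133 CPM in GFP-low and 30.04 CPM in GFP-high cells. In the same comparison all 11 tested myeloid markers were lower (median -2.88), and 9 of 19 tested fibroblast markers were higher (median 0.74). The part of these other cell types in the differences of the 8 genes was not tested.

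The inhibitor series asked what UNC0638 changes in cultures on feeders, and the 3 concentrations share the DMSO library. Neurog3 rose and Stra8 fell at 0.5 µM, 2 of the 8 genes, where 3.71% of tested genes were called, 1.58% higher and 2.13% lower. Neurog3 was 2.90-fold higher than with DMSO at 0.5 µM (log2 ratio 1.54 [1.07 to 2.38]), from 27 to 91 counts, and 45 of 14301 tested genes had a higher ratio. It was 2.94-fold higher at 1 µM (1.56 [1.10 to 2.39]), where it was the single gene called of the 8 beside 6.71% of tested genes (2.59% higher and 4.12% lower). At 2 µM it was again the single gene called, at 2.02-fold (1.01 [0.45 to 1.87]), beside 7.01% of tested genes (3.42% higher and 3.59% lower). This last value was 0.99 on deposited TPM and 0.70 with a pseudocount of 5 CPM, so the call at 2 µM depended on those settings. Between 2 and 1 µM the Neurog3 ratio was -0.54 [-1.09 to -0.08], so its CPM at the highest concentration lay below that at 1 µM beyond counting error. The tested germ cell markers had a median ratio to DMSO of 0.02 at 1 µM and -0.15 at 2 µM. The Neurog3 ratio between these concentrations was not centred on them.

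Stra8 was 2.30-fold lower than with DMSO at 0.5 µM (-1.20 [-1.70 to -0.84]), from 153 to 66 counts, and 151 tested genes had a lower ratio. At 1 and 2 µM the ratios were -0.77 [-1.19 to -0.43] and -0.71 [-1.15 to -0.34], short of 2-fold, with intervals below 0. The 2 µM level was not lower than that at 0.5 µM, with a ratio between them of 0.50 and an interval above 0. Sohlh1 was not called at any concentration, with ratios of 0.42 [0.30 to 0.55], 0.49 [0.36 to 0.61] and 0.55 [0.42 to 0.68] whose intervals all lie above 0. Kit, which rose with Stra8 in the GFP fractions, had ratios of 0.16 [-0.12 to 0.45], -0.23 [-0.54 to 0.06] and -0.32 [-0.66 to -0.0046]. Upp1 lay between -0.36 and 0.10, Dmrt1 between 0.11 and 0.27 and Sohlh2 between -0.35 and 0.00. Sox3 rested on 9 to 18 counts and its 3 intervals all included 0.

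**Figure D3:**
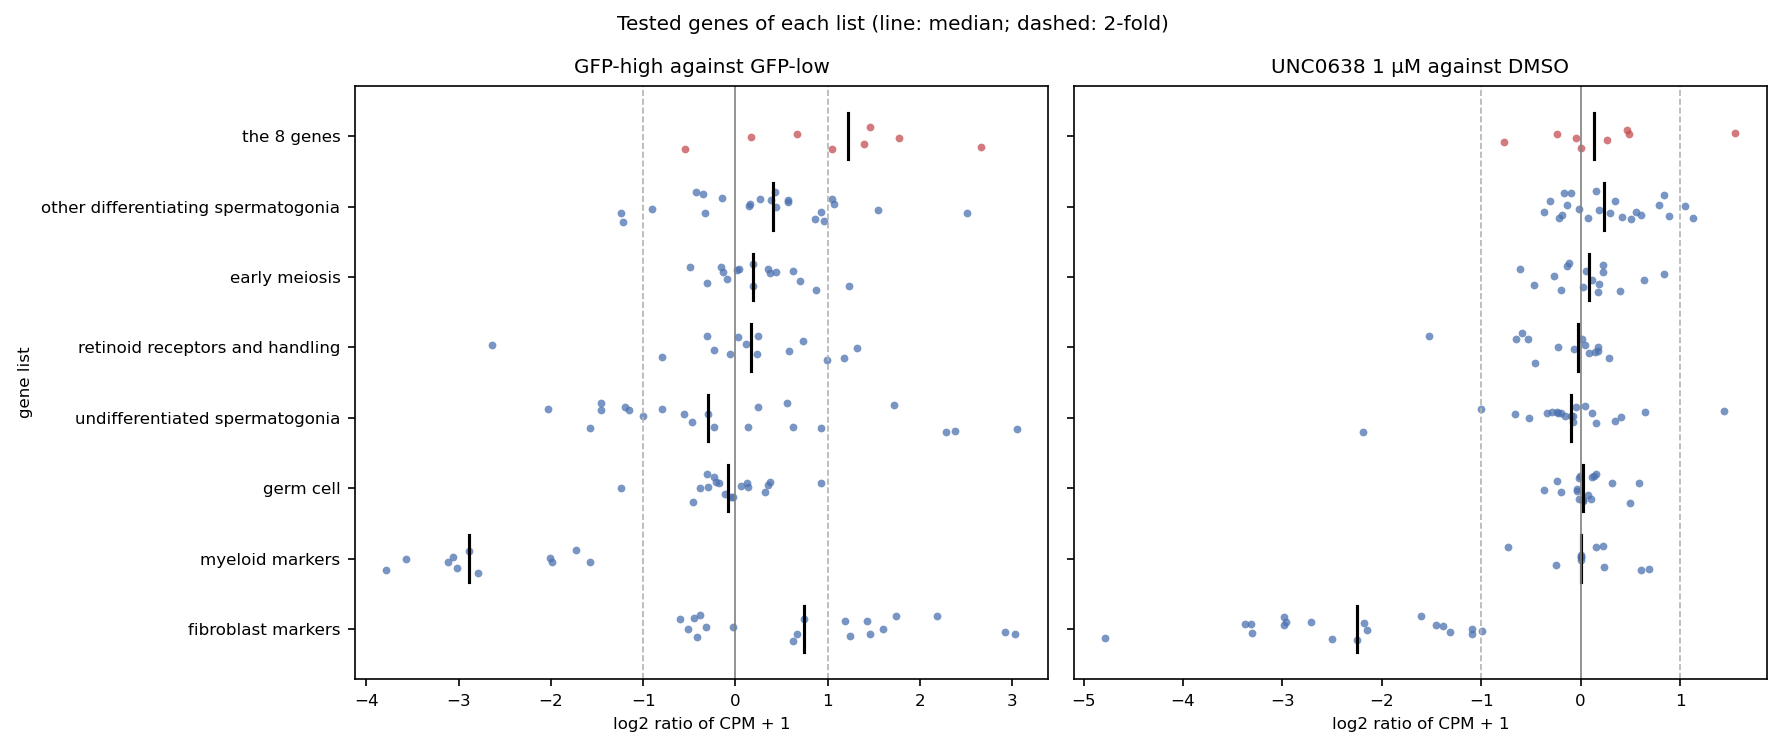
Log2 ratios of CPM + 1 (horizontal axes) of the 8 genes and of the tested genes of some of the lists (vertical axis). The panels show GFP-high against GFP-low cells and 1 µM UNC0638 against DMSO. Each point is a gene, the line is the list's median and the dashed lines mark 2-fold; the 8 genes have a median of 1.22 in the first comparison and 0.14 in the second.

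Other genes of the pathway were counted against the same shares of all tested genes, 3.71%, 6.71% and 7.01% at 0.5, 1 and 2 µM. Of the 22 further differentiation genes none was called at 0.5 µM, Dnmt3l and Tsp50 were higher at 1 µM, and these and Insl6 at 2 µM. Of the 14 retinoid genes none was called at 0.5 µM, Aldh1a1 was lower at 1 µM, and Rxrg, Aldh1a1 and Aldh1a3 were lower at 2 µM. The early meiosis gene Prdm9 was lower at 0.5 µM, the sole call of that list at any concentration. Its level was low throughout, at 3.99 CPM with DMSO and 0, 2.27 and 1.60 CPM at 0.5, 1 and 2 µM. Of the 21 genes of undifferentiated spermatogonia, Plvap was lower at each concentration and Egr4 higher at 1 and 2 µM. Of the 19 genes of KIT signalling none was called at 0.5 or 1 µM, and Gab2, an adaptor gene, was lower at 2 µM. Fibroblast markers moved more: 11, 18 and 15 of 19 tested were lower at 0.5, 1 and 2 µM, with medians of -1.07, -2.25 and -2.09. Their part in the Neurog3 and Stra8 differences was not tested.

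The density pair compared epithelial-like with mesenchymal-like cultures. None of the 8 genes was called between them, where 12.5% of tested genes were (10.7% higher and 1.78% lower). Of the 8, 7 were at a lower CPM in the mesenchymal-like culture, with ratios of -0.47 [-0.76 to -0.21] for Stra8, -0.46 [-0.58 to -0.35] for Sohlh2, -0.43 [-0.60 to -0.26] for Sohlh1 and -0.28 [-0.38 to -0.18] for Dmrt1, and with intervals that included 0 for Kit, Neurog3 and Sox3. Upp1, at 0.29 [-0.17 to 0.80], had the positive ratio. The median over the 8 was -0.27, next to -0.30 over the tested germ cell markers, 17 of which were negative and none called. In the same pair 18 of 19 tested fibroblast markers were higher, with a median of 4.81. Centred on the germ cell markers, which subtracts their median ratio from every gene, the ratios of Kit, Neurog3, Dmrt1 and Sox3 changed sign, to 0.04, 0.05, 0.02 and 0.21, and those of Stra8, Sohlh1 and Sohlh2 were -0.18, -0.13 and -0.16.

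The feeder-removal series asked what follows transfer from MEF to Matrigel. None of the 8 genes was called on day 4 or day 9 against day 0, or on day 9 against day 4, where 2.28%, 2.6% and 1.74% of tested genes were. The higher shares were 1.25%, 1.62% and 0.881% and the lower shares 1.03%, 0.979% and 0.86%. These comparisons share libraries. Kit had the largest ratio, 0.21 [0.05 to 0.39] on day 4 and 0.44 [0.28 to 0.61] on day 9, below 2-fold but with intervals above 0. Upp1 was at -0.29 [-0.46 to -0.14] and Sohlh1 at -0.21 [-0.31 to -0.11] on day 9, and at 0.04 and 0.02 on day 4. Stra8, Neurog3, Sohlh2, Dmrt1 and Sox3 had intervals that included 0 on both days. The summed fibroblast markers differed little across the series, at 306, 297 and 272 CPM.

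The day 0 and DMSO cultures were both grown on MEF without the inhibitor, in separate experiments. Between DMSO and day 0, 3 of the 8 genes were called, where 19.4% of tested genes were (12.2% higher and 7.22% lower). Upp1 was 2.91-fold lower with DMSO (-1.54 [-1.86 to -1.30]), Neurog3 2.75-fold lower (-1.46 [-2.28 to -1.01]) and Sox3 higher, with 10 counts against 2 and a log2 ratio of CPM + 1 of 1.25 [0.71 to 6.18], which the added 1 CPM makes smaller at so low a level. Centred on the germ cell markers the Neurog3 ratio was -0.93 and that of Dmrt1 was 1.01, which exchanged their calls, and Sox3 was at 0.41 with a pseudocount of 5 CPM. The Neurog3 level with 0.5 and 1 µM UNC0638, 17.5 and 17.8 CPM, was near the 16.6 CPM of the feeder culture on day 0. The DMSO level, 5.39 CPM, was the lowest of the inhibitor series. It lay within the 4.59 to 5.78 CPM of the density pair and of GFP-low and GFP-mid cells. The experiment, the solvent and the cells around them cannot be told apart here. Fibroblast markers were 2.85 higher in median log2 ratio with DMSO.

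**Figure D4:**
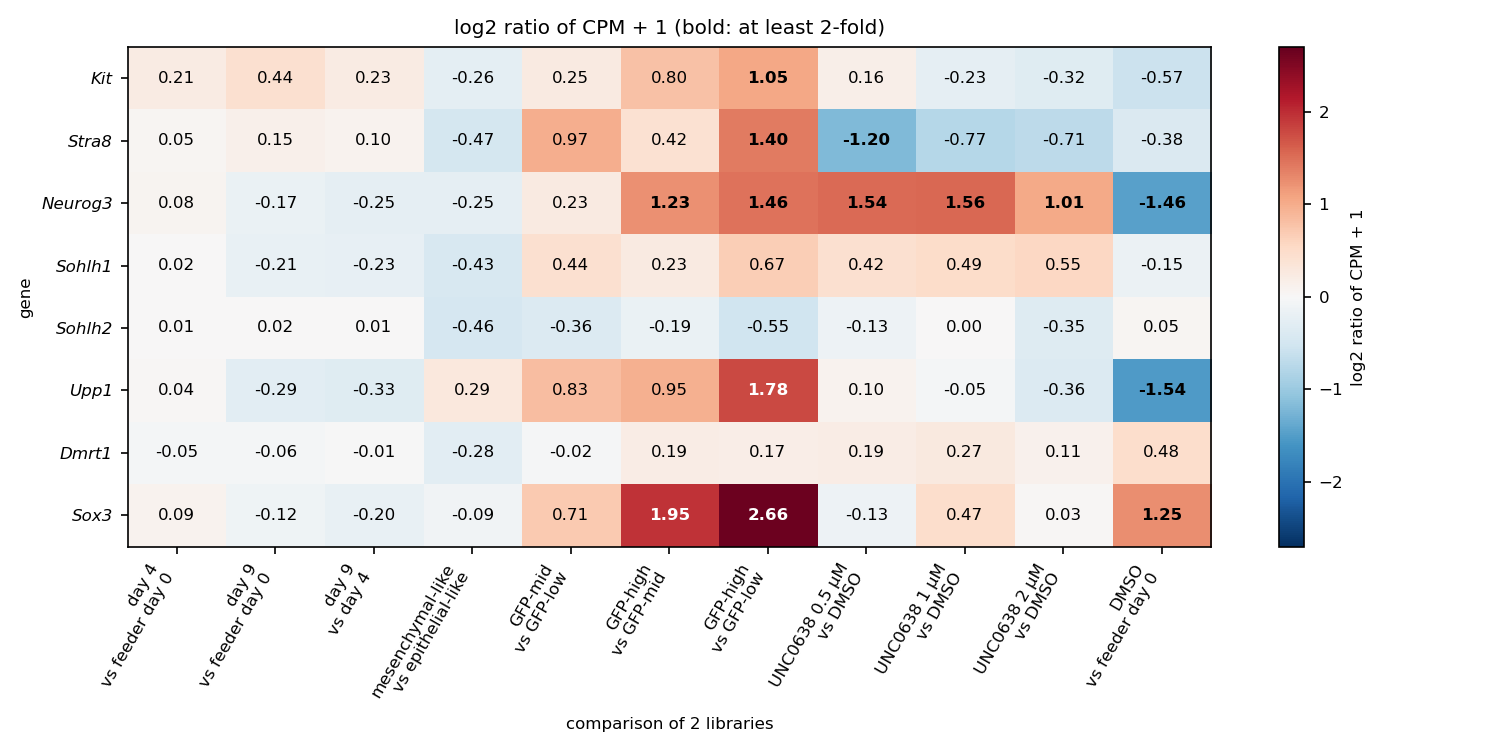
Log2 ratio of CPM + 1 of each of the 8 genes (rows) in the 11 comparisons (columns), with colour for direction and size and bold figures at 2-fold or more. Calls are absent from the feeder-removal and density columns and 5 of 8 genes are called in GFP-high against GFP-low cells.

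The genes were also compared by their pattern over the 12 libraries, as the root mean square difference of log2(CPM + 1) after each experiment was centred on its own mean, a description of these libraries that shares their depth. Sohlh1 and Dmrt1 were the closest pair at 0.154, and Sohlh2 and Sox3 the farthest at 0.683. Stra8 and Neurog3 were 0.637 apart. The measure depends on how far a gene moved as well as on its direction, so genes that moved little lie close together. The root mean square of the centred values was 0.092 for Dmrt1, 0.169 for Sohlh2 and 0.212 for Sohlh1, the lowest values, and 0.578 for Sox3, the highest. For the 5 genes whose centred values spanned at least a log2 unit, the nearest of 9199 candidate genes (mean 10 CPM or more) were Kif26a (0.104), Epha8 (0.105) and Fbxo41 (0.113) for Kit, and Npr1 (0.154), 1110020G09Rik (0.186) and Isgf3g (0.206) for Stra8. For Neurog3 they were Rasip1 (0.227), Ina (0.238) and Hes5 (0.248), for Upp1 Hspa1a (0.0666), Nptx1 (0.134) and Epb4.1l4a (0.153), and for Sox3 Clstn1 (0.214), Tgfbi (0.219) and Ptov1 (0.257). With a pseudocount of 5 CPM, 9 of the 15 named neighbours stayed among the nearest 3.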

How the data were processed

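RNA was sequenced from 12 libraries made with a modified Smart-seq2 protocol and a Vazyme TruePrep kit, per the labels' protocols. The authors deposited gene-level RSEM tables with an expected count and a TPM per gene, on mm10 and after Trim Galore, per the submitters' processing notes; versions, aligner, annotation release and strand are not given in the sources used here. Expected counts were as deposited by the authors, estimated per gene without normalization, and 8.52 to 10.7% of genes per library were not whole; they were rounded to whole numbers, and 94 of the 96 values of the 8 genes were whole already (exactly, as deposited, with no tolerance). TPM values deposited by the authors were used to compare genes and as an alternative scale. The 4 ATAC libraries, 2 per Matrigel density, were not analysed here.

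CPM was computed with TMM factors (0.912 to 1.07) from edgeR 4.0.16 in R 4.3.3 over all 12 libraries, and DESeq2 1.42.0 size factors were an alternative. The comparisons used 14301 of 27128 genes, those averaging 1 CPM or more over the libraries, the 8 genes among them. With 1 library per group, no test was made: a ratio of CPM + 1 of 2-fold or more is called, and the intervals cover counting error only, since amplified reads carry no molecular identifiers and may repeat a molecule. The other steps used scipy 1.17.1, pandas 2.3.3, numpy 2.4.6 and matplotlib 3.10.9 in Python 3.11.15. The procedure was tested on simulated data.

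The 8 genes and the 12 lists (217 entries, 206 of them in the files) were chosen with earlier results of these data known; 1 further list entry is not reported here. Named genes are the 8, Pou5f1 as the gene of the reporter, genes of these lists, and the genes nearest in pattern. The nearest are 3 for each of the 8 whose centred log2 range was at least 1, among genes averaging 10 CPM or more. Symbols starting LOC, EG, OTTMUS or Gm were left out of the nearest. The 8 alternatives are other scalings (DESeq2, total counts, deposited TPM, centring on the germ cell markers), pseudocounts of 0.1 and 5, no filter, and a filter of 10 CPM. Gene positions and upstream sequences come from RefSeq on GRCm38.p6, and windows end at the transcript start.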

Additional observations from a re-analysis of the deposited data

How the results depend on the processing

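No paired analysis was possible because each RNA group holds 1 library, and no library could be left out of a group for the same reason. Over 528 ratios of the 8 genes under other scalings and pseudocounts, none that was called changed sign, 477 lay inside the counting interval of the reported ratio and 51 outside it, 26 of the latter when centred on the germ cell markers and 14 on deposited TPM. The reported Sox3 ratios of GFP-high to GFP-mid and GFP-low lie below their own intervals, which carry no pseudocount, so nearly equal values, such as both of those outside with DESeq2 size factors, count as outside. The number of the 8 genes called between GFP-mid and GFP-low, 0 as reported, was 1 with total counts (Stra8), 1 when centred on the germ cell markers (Stra8), 1 with a pseudocount of 0.1 (Sox3) and 2 on deposited TPM (Stra8 and Sox3). Between GFP-high and GFP-mid, 2 as reported, it was 0 with a pseudocount of 5, 1 with a filter of 10 CPM, which removes Sox3, and 3 on deposited TPM. With 2 µM UNC0638, 1 as reported, it was 0 on deposited TPM and 0 with a pseudocount of 5. Of the 15 genes nearest in pattern, 9 were shared with a pseudocount of 5. The number of called genes over the whole table fell in each comparison with a pseudocount of 5 or a filter of 10 CPM, for example from 1364 to 521 and 622 in GFP-high against GFP-low cells, and was 2150 there with a pseudocount of 0.1. Scaling moved the median of all tested genes by more than 0.1 on deposited TPM (0.13 in GFP-high against GFP-low) and when centred on the germ cell markers (up to 0.53, for DMSO against day 0). Depth limits Sox3 throughout, and Neurog3 where it had 19 to 38 counts.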

Other observations

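Relatives of the transcription factors described above were also measured. Of 24 tested genes in a list of further SOX, DMRT and basic helix-loop-helix genes, their regulators and oocyte factors downstream of SOHLH1, 6 were at least 2-fold higher in GFP-high than in GFP-low cells and none was lower: Sox4, Sox9, Lhx8, Nobox, Hey1 and Id4. Over all tested genes 6.94% were higher and 2.59% lower. Sox4 was at 26.5, 61.8 and 70.4 CPM in GFP-low, mid and high cells. Sox9 was at 0.752 CPM in GFP-low and 2.65 CPM in GFP-high cells, and is also on the list of Sertoli markers. Id4 is also on the list of undifferentiated spermatogonia. The part of other cell types in these differences was not tested. Lhx8 and Nobox encode homeodomain factors best known from oocytes, where SOHLH1 acts upstream of them. Lhx8 was at 0.627 CPM in GFP-low and 3.29 CPM in GFP-high cells, from 5 and 31 counts, and Nobox at 2.63 and 6.79 CPM, from 21 and 64 counts. Figla, an oocyte helix-loop-helix gene, was at 13.4 and 13.7 CPM. With 2 µM UNC0638 Sox4 had a ratio to DMSO of 0.97 and Nobox of 0.93, both short of 2-fold.

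Between the DMSO and day 0 cultures, 7 of 21 tested genes of undifferentiated spermatogonia were higher with DMSO, Gfra1 and Ret among them, and none was lower. Over all tested genes 12.2% were higher and 7.22% lower. Of 22 tested further differentiation genes 4 were higher and 6 lower, and of 14 tested retinoid genes 6 were higher and 1 lower. Dnmt3l and Sycp3 were among the lower genes. In the same comparison 15 of 18 tested germ cell markers had a negative ratio, with a median of -0.53 and 1 called lower, and the fibroblast markers had a median of 2.85; the part of either in these counts was not tested.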
